A study of Mus musculus with 45 samples.

Results

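Purine nucleoside handling in the mouse ileum was followed through 8 genes: Enpp3, Nt5e, Slc28a2, Slc29a1, Ada, Pnp, Xdh and Adss. They are 8 of the 19494 genes with a symbol on the array, found by symbol, and each had 1 probe. They were chosen from earlier results of these data. The log2 difference between FADD IEC-KO Mlkl -/- and FADD IEC-KO ileum brought in at least Ada and Slc28a2, so that difference is described below without a test. Any comparison with FADD IEC-KO or FADD IEC-KO Mlkl -/- mice reuses those arrays. Its values for Ada and Slc28a2 in the latter group are given without a p, and its p-values for the other 6 genes, whose choice may also have drawn on these arrays, are no independent evidence.

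RNA came from whole pieces of ileum of mice aged about 11 weeks by their descriptions (the source names give a wider range), kept on a chow diet in a specific-pathogen-free facility, with 1 mouse per array. There were 9 groups of 5 mice, 45 arrays in all. Both control groups carried loxP-flanked alleles and no deletion, Fadd fl/fl and Casp8 fl/fl. FADD IEC-KO and CASP8 IEC-KO mice lacked FADD, the adaptor of death receptors, or caspase-8, the protease it recruits, in intestinal epithelial cells (IEC). A further 3 groups combined FADD IEC-KO with a further loss: Mlkl -/- throughout the body, Zbp1 -/- throughout the body, or RIPK3 IEC-KO in the epithelium. The remaining groups were CASP8 IEC-KO Mlkl -/- and the triple mutant, labelled FADD IEC-KO CASP8 IEC-KO Mlkl -/-. MLKL, RIPK3 and ZBP1 are the executioner, a kinase and a nucleic acid sensor of necroptosis. The driver of the epithelial deletion and the sex of the mice are not given in the sources used here, and the epithelial deletions leave the targeted genes in the other cells of the tissue.

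Values are the authors' normalized log2 intensities. Array medians ran from 6.36 to 6.44, and a probe's intensity cannot be set against another probe's. Fadd fl/fl mice had Fadd at 7.53 ± 0.06 (SD, n = 5), against 6.45 ± 0.52 in FADD IEC-KO, in which replicate 1 stood at 7.32, close to the controls. Casp8 was 11.35 ± 0.09 in Casp8 fl/fl and 10.23 ± 0.51 in CASP8 IEC-KO. There replicate 1 was the highest of its group at 10.89, below the lowest control at 11.24. For the 8 genes and the counts over the wider pathway, results that rest on these 2 mice are given without them where a call or a count changed. The genotype field of the triple mutant names caspase-8 and MLKL loss alone, whereas its titles name FADD as well, and Fadd was 6.05 ± 0.44 there. Zbp1 was lower than in Fadd fl/fl in FADD IEC-KO Zbp1 -/- (−1.11, adjusted p = 0.00910, limma), and Ripk3 in FADD IEC-KO RIPK3 IEC-KO (−0.76, adjusted p = 0.00865). Mlkl was 7.14 ± 0.19 in the triple mutant and 8.05 ± 0.22 in FADD IEC-KO Mlkl -/-, against 8.66 ± 0.35 in Fadd fl/fl. In mice labelled CASP8 IEC-KO Mlkl -/- it was 8.43 ± 0.22, which differed from Casp8 fl/fl (8.62 ± 0.21) by −0.19 (adjusted p = 0.769) and from CASP8 IEC-KO (8.99 ± 0.26) by −0.56 (adjusted p = 0.132). The Mlkl probe therefore does not bear out the Mlkl -/- label of that group, and whether it reads the part of the gene that the allele lacks is not given in the sources used here. Comparisons with that group are named by the label. The numbers in the mouse titles fell either under 100 or at 200 and over, and this was treated as a possible batch, although what it stands for is not stated. All 5 FADD IEC-KO Mlkl -/- mice were under 100 and all 5 triple mutants at 200 and over.

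As background, purine nucleosides reach the gut surface from food, from shed cells and from nucleotides released by living cells. Enpp3 and Nt5e (CD73) are enzymes of the cell surface. The first splits nucleoside triphosphates to monophosphates, and the second turns AMP into adenosine. Slc28a2 carries purine nucleosides into the cell with sodium, and Slc29a1 lets nucleosides pass down their gradient. Inside, Ada turns adenosine into inosine, Pnp turns inosine and guanosine into free bases, and Xdh carries hypoxanthine on to xanthine and uric acid. Adss works in the other direction, on the path from IMP to AMP. In the mouse small intestine, Ada, Nt5e and Slc28a2 are known as genes of the upper villus.

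RefSeq promoter windows of 300 bases, from 250 before to 50 after the transcript start on GRCm38.p6, were at hand for 7 of the 8 genes. Here 5 are printed: those of Ada, Slc28a2, Nt5e and Enpp3, which were low together in FADD IEC-KO Mlkl -/- ileum, and that of Adss, which ran the other way. Slc29a1, also lower there than in Fadd fl/fl, has several windows, which are not printed. The windows of Slc28a2 and Adss are set on a transcript start inside the annotated gene, not on its outermost 5′ end. Capitals mark matches to searched motifs. All sequences run 5′ to 3′ on the strand of the gene.
Ada, chr2:163750190-163750489, minus strand: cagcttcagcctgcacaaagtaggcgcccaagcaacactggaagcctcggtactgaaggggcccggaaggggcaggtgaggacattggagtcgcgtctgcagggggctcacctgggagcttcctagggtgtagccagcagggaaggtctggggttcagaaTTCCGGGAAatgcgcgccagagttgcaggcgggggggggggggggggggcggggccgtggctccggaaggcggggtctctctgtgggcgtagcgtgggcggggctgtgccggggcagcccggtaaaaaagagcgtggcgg
Slc28a2, chr2:122426185-122426484, plus strand: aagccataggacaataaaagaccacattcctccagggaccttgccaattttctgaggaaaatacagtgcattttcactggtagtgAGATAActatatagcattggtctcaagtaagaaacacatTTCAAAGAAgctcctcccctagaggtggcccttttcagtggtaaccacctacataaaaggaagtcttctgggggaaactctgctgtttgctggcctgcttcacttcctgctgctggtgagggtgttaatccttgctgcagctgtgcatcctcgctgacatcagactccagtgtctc
Nt5e, chr9:88327359-88327658, plus strand: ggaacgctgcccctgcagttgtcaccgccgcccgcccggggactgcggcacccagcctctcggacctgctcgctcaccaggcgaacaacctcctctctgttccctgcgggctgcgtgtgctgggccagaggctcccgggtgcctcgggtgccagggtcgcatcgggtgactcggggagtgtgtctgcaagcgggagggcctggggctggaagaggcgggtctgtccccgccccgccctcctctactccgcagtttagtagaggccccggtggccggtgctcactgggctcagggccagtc
Enpp3, chr10:24836146-24836445, minus strand: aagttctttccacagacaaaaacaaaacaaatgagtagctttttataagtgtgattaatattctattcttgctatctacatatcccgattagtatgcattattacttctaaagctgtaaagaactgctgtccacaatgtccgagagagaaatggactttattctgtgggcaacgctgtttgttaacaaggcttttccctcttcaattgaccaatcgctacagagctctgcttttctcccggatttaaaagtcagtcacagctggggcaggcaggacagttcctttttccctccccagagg
Adss, chr1:177796460-177796759, minus strand: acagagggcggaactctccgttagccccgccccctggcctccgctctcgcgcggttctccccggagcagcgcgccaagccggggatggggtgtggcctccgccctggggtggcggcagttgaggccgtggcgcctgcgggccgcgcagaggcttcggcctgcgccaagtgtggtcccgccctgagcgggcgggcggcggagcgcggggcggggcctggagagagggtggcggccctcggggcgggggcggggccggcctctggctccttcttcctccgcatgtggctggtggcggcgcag

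The searched motifs, each on both strands, are given by their letters. For AP-1 the letters were TGACTCA. The GATA motif was read as AGATAA. That of HNF4 was CAAAGTCCA. STAT factors were represented by TTCNNNGAA. The E-box was taken as CACGTG. Ada held TTCCGGGAA 90 to 82 bases before the start. Slc28a2 held TTCAAAGAA 126 to 118 bases before the start and the GATA motif 165 to 160 bases before it. No searched motif was found in the windows of Nt5e, Enpp3 or Adss. The unprinted Slc29a1 windows held an E-box 75 to 70 bases before a start, and a GATA motif 236 to 231 bases before another. Of the 32851 promoters of the table, 8.3% held the STAT motif, 11.2% GATA, 5.2% AP-1, 7.15% the E-box and 0.475% HNF4. The windows differed in base composition: GC content was 68.0% in Ada, 71.0% in Nt5e and 77.7% in Adss, and 46.7% in Slc28a2 and 40.7% in Enpp3, against a median of 52.7% over all promoters. Adss held 36 CpG dinucleotides. Among the printed genes that were low together, Ada held 20, Nt5e 23, Enpp3 5 and Slc28a2 1.

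**Figure D1:**
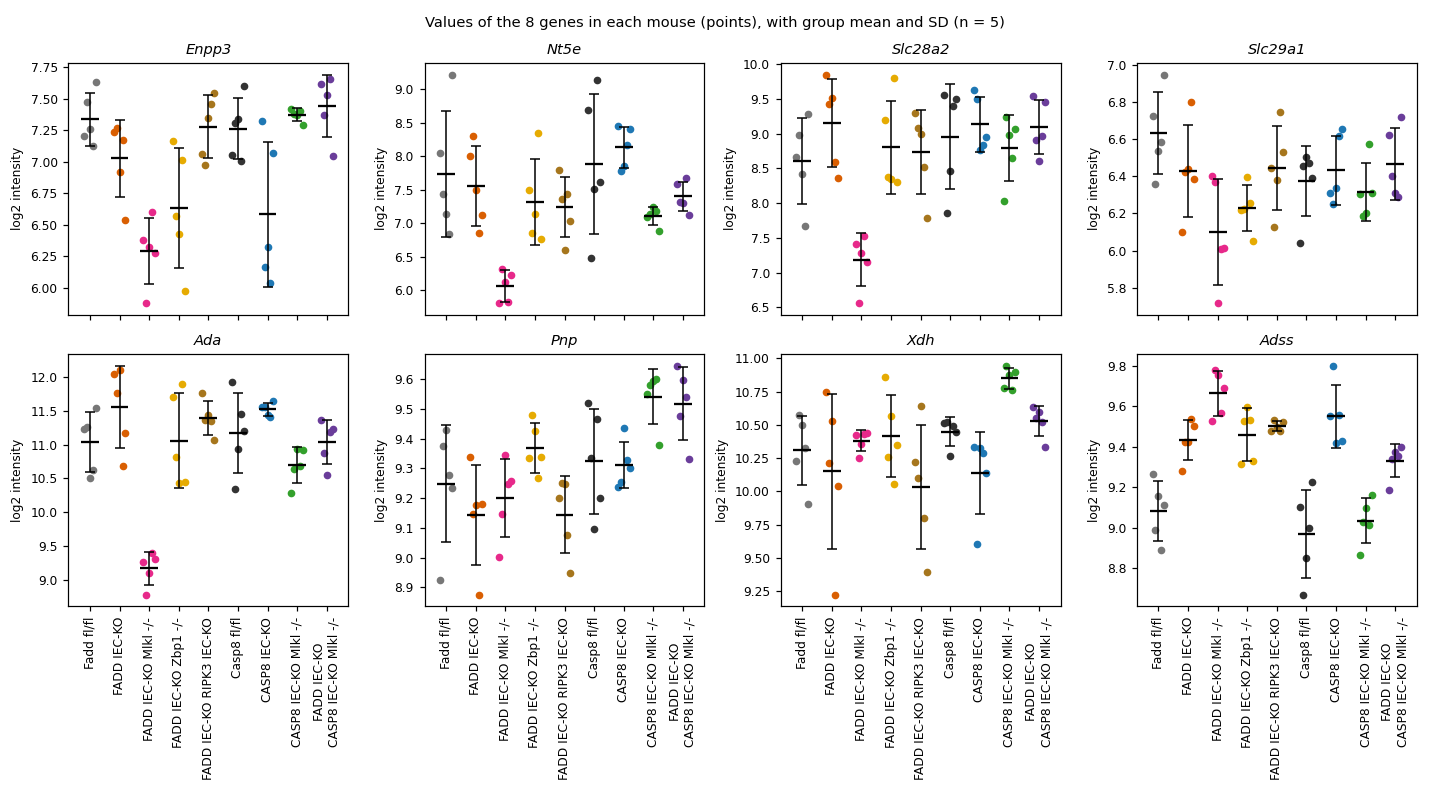
Log2 intensity (y axis) of each of the 8 genes in each mouse (points), by genotype group (x axis), with the group mean and SD as black bars (n = 5). Ada lay between 8.79 and 9.40 in FADD IEC-KO Mlkl -/- mice and at 10.28 or above in every other mouse, whereas Adss was highest in that group, at a mean of 9.66.

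Ada was the gene with the widest spread of group means. In FADD IEC-KO Mlkl -/- ileum the 5 mice read 9.26, 8.79, 9.10, 9.40 and 9.32, and in FADD IEC-KO ileum 12.05, 11.76, 12.10, 10.69 and 11.17. The groups did not overlap (1.74% of all genes had this group wholly below), and their means differed by −2.38 on the log2 scale, which is 5.21-fold. Ada ranked 4 by absolute size among all genes in this difference, which helped to choose it and is given as a description. In whole tissue, fewer cells of a type and less RNA per cell cannot be told apart.

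The floxed controls had no part in that difference, but the FADD IEC-KO Mlkl -/- arrays did, so this comparison is also a description. Fadd fl/fl mice read 11.24, 11.25, 10.51, 10.62 and 11.55, all above the double mutants, an arrangement that 5.63% of all genes showed. The log2 difference was −1.86 ± 0.26 (SE), 3.63-fold lower. Among mice with title numbers under 100 (5 against 2) it was −2.07.

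FADD IEC-KO ileum itself did not differ from Fadd fl/fl in Ada beyond the spread between mice, with a log2 difference of 0.52 ± 0.26 and an adjusted p of 0.280 (limma, Benjamini-Hochberg over 19494 genes), on arrays of which FADD IEC-KO also entered the choice. Neither did FADD IEC-KO Zbp1 -/- (0.03, 95% interval −0.50 to 0.55, adjusted p = 0.970 in limma) or FADD IEC-KO RIPK3 IEC-KO (0.36, −0.16 to 0.89, adjusted p = 0.579). The mice of these 2 groups read 10.43 to 11.90 and 11.07 to 11.77, all above the FADD IEC-KO Mlkl -/- mice. Without FADD IEC-KO replicate 1 the first difference was 0.40 (adjusted p = 0.488).

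The arrays of caspase-8-deficient ileum are not among those of the difference that brought in Ada. There the mice labelled Mlkl -/-, whose Mlkl level did not bear out that label, had lower values of Ada, though the difference did not pass. CASP8 IEC-KO mice read 11.56, 11.55, 11.44, 11.40 and 11.65, a tight group with an SD of 0.10. CASP8 IEC-KO Mlkl -/- mice read 10.28, 10.63, 10.94, 10.68 and 10.93. The groups did not overlap, as in 1.97% of all genes with the lower group below the other. The log2 difference of −0.83 ± 0.26 did not pass the test (adjusted p = 0.0816, limma). Within the title series it was −0.88 under 100 (4 mice against 3). At 200 and over, with 1 mouse labelled CASP8 IEC-KO Mlkl -/- against 2, it was −0.60. A fit of these 2 groups alone gave an adjusted p of 0.00247, and array weights gave 0.0145. Without CASP8 IEC-KO replicate 1 it was −0.82, with an adjusted p of 0.106.

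Triple mutants had Ada at 11.36, 10.88, 10.55, 11.19 and 11.22. Against the mean of both floxed groups the log2 difference was −0.06 ± 0.23 (adjusted p = 0.925, limma). Against FADD IEC-KO Mlkl -/- it was 1.87 ± 0.26, 3.65-fold higher, a description since these FADD IEC-KO Mlkl -/- arrays chose Ada. The groups fall wholly into different title series, so series and genotype cannot be told apart.

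The transporter Slc28a2 had its low values in the same group as Ada. FADD IEC-KO Mlkl -/- mice read 7.41, 6.56, 7.28, 7.53 and 7.15, below every mouse of the other 8 groups, of which the lowest stood at 7.67. FADD IEC-KO mice read 9.85, 9.43, 9.51, 8.59 and 8.37, a difference of −1.97 that is given without a test. Against Fadd fl/fl, at 8.67, 8.98, 8.43, 7.67 and 9.29, Slc28a2 was 2.68-fold lower, with a log2 difference of −1.42 ± 0.34 and of −1.64 among mice under 100 (5 against 2). Triple mutants had 1.91 ± 0.34 more than FADD IEC-KO Mlkl -/-. Both values rest on the arrays that brought in Slc28a2 and are given without a test. Triple mutants differed from the floxed controls by 0.32 ± 0.29 (adjusted p = 0.618, limma).

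In caspase-8-deficient ileum Slc28a2 showed no detectable difference with the Mlkl -/- label. CASP8 IEC-KO averaged 9.14 ± 0.40 and CASP8 IEC-KO Mlkl -/- 8.79 ± 0.48, the groups overlapped, and the log2 difference of −0.34 had a 95% interval of −1.02 to 0.34 (adjusted p = 0.771, limma), or −0.22 without CASP8 IEC-KO replicate 1 (adjusted p = 0.853 with FADD IEC-KO replicate 1 left out too). Slc28a2b, a neighbouring gene closely related to Slc28a2, was on the array with its own probe, and cross-hybridisation between the copies was not tested. It was 6.24 ± 0.21 in FADD IEC-KO and 5.67 ± 0.23 in Fadd fl/fl, a rise of 0.57 ± 0.15 (adjusted p = 0.0290) whose call was lost without the 2 mice named above (0.53, adjusted p = 0.0517), where Slc28a2 itself moved by 0.55 ± 0.34 (adjusted p = 0.407).

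The equilibrative transporter Slc29a1 varied little. Its group means ran from 6.10 in FADD IEC-KO Mlkl -/- to 6.63 in Fadd fl/fl, with an SD within groups of 0.21. It was lower in FADD IEC-KO Mlkl -/- than in Fadd fl/fl by 0.53 on the log2 scale, at −0.53 ± 0.13 (adjusted p = 0.00569, limma). It was also lower in FADD IEC-KO Zbp1 -/-, at −0.40 ± 0.13 (adjusted p = 0.0356). In both cases the groups overlapped, and the first comparison shares arrays with the choice of Ada and Slc28a2. The second call was lost in 5 of the 10 fits that left out 1 mouse (Fadd fl/fl replicate 1 or 5, or FADD IEC-KO Zbp1 -/- replicate 1, 2 or 5), with adjusted p up to 0.140.

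Nt5e, the enzyme that makes adenosine outside the cell, was low in the same group as Ada and Slc28a2. FADD IEC-KO Mlkl -/- mice read 5.80, 6.32, 6.12, 5.82 and 6.23, and Fadd fl/fl mice 8.04, 7.44, 7.13, 6.83 and 9.22. The groups did not overlap and differed by −1.68 ± 0.36, 3.20-fold (adjusted p = 0.00152, limma), on arrays shared with the choice of Ada and Slc28a2. Against FADD IEC-KO, at 7.996, 8.30, 7.49, 6.85 and 7.12, the difference was −1.50 and is given without a test. The floxed controls themselves spread widely in Nt5e, with SDs of 0.95 in Fadd fl/fl and 1.05 in Casp8 fl/fl.

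In caspase-8-deficient ileum Nt5e, like Ada, had groups that did not overlap. CASP8 IEC-KO mice read 8.46, 7.78, 7.85, 8.17 and 8.41, and mice labelled CASP8 IEC-KO Mlkl -/-, with Mlkl near the controls, 7.10, 7.13, 7.24, 7.18 and 6.89. The log2 difference of −1.03 ± 0.36 did not pass the test over all groups (adjusted p = 0.128, limma). It passed in a fit of these 2 groups alone (adjusted p = 0.00122) and with array weights (0.0241). It was −0.87 under 100 (4 mice against 3) and −1.40 at 200 and over (1 against 2). Without CASP8 IEC-KO replicate 1 it was −0.94 (adjusted p = 0.195). Triple mutants stood at 7.40 ± 0.22, which was 1.34 ± 0.36 above FADD IEC-KO Mlkl -/- (adjusted p = 0.0138, again on shared arrays). With the title series as a covariate that adjusted p was 0.0586.

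Enpp3, the surface pyrophosphatase and phosphodiesterase, had a pattern of its own. It was low in 3 groups: FADD IEC-KO Mlkl -/- at 6.29 ± 0.26, CASP8 IEC-KO at 6.58 ± 0.57 and FADD IEC-KO Zbp1 -/- at 6.63 ± 0.48. All other groups averaged 7.03 or more. Relative to the floxed controls, the log2 differences were −1.05 ± 0.20 (adjusted p = 3.90e-04, limma), −0.68 ± 0.20 (adjusted p = 0.0390) and −0.71 ± 0.20 (adjusted p = 0.0132), of which the first shares arrays with the choice of Ada and Slc28a2. In fits of the 2 groups alone the calls in CASP8 IEC-KO and FADD IEC-KO Zbp1 -/- were lost. Within the title series the CASP8 IEC-KO difference was −0.57 under 100 (3 mice against 4) and −1.05 at 200 and over (2 against 1). The FADD IEC-KO Zbp1 -/- difference was −0.62 (3 against 2) and −0.84 (2 against 3). The latter call was lost without Fadd fl/fl replicate 5 (adjusted p = 0.0514) or FADD IEC-KO Zbp1 -/- replicate 5 (0.0807).

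The mice labelled Mlkl -/- differed in Enpp3 with opposite sign on the 2 backgrounds, and in the caspase-8-deficient one Mlkl itself did not bear out the label. CASP8 IEC-KO mice read 7.32, 6.16, 6.32, 6.04 and 7.07, and CASP8 IEC-KO Mlkl -/- mice 7.42, 7.38, 7.37, 7.40 and 7.29. Enpp3 rose by 0.79 ± 0.20, 1.73-fold (adjusted p = 0.0140, limma), to a level that differed from Casp8 fl/fl by 0.11 ± 0.20 (adjusted p = 0.885). The call against CASP8 IEC-KO was lost without CASP8 IEC-KO replicate 2, 3 or 4 (0.66 to 0.73, adjusted p from 0.0542 to 0.0849), and without replicate 1 the rise was 0.98 (adjusted p = 9.72e-04). In FADD IEC-KO ileum, by contrast, Enpp3 was 0.74 lower with the Mlkl -/- label, a value given without a test, and the difference between the backgrounds was not tested. Triple mutants stood at 7.44 ± 0.25, 1.15 ± 0.20 above FADD IEC-KO Mlkl -/- (adjusted p = 2.33e-04, on shared arrays).

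The CASP8 IEC-KO mice were uneven in Enpp3, and the order of the 5 mice was that of Casp8 itself. The share of all genes with that order was not counted, so nothing is read from it. From highest to lowest, replicates 1, 5, 3, 2 and 4 had Enpp3 at 7.32, 7.07, 6.32, 6.16 and 6.04, and Casp8 at 10.89, 10.57, 10.20, 9.88 and 9.63. The mean of 8 Paneth cell markers took the same order, at 10.69, 9.19, 8.73, 7.87 and 7.52. That list averaged 11.08 ± 0.42 in Casp8 fl/fl and 10.75 ± 0.31 in CASP8 IEC-KO Mlkl -/-. In CASP8 IEC-KO against Casp8 fl/fl, 7 of the 8 Paneth genes fell, with a median log2 difference of −2.24 against −0.02 over all genes. In FADD IEC-KO Mlkl -/- against Fadd fl/fl 7 of 8 fell (median −1.96), and in FADD IEC-KO Zbp1 -/- 8 of 8 (median −2.88). In FADD IEC-KO 7 of 8 fell as well (median −2.27). Without the 2 mice named above, 7 of 8 fell in both CASP8 IEC-KO (median −2.74) and FADD IEC-KO (−2.45). In FADD IEC-KO with all mice Enpp3 differed by −0.31 ± 0.20 (adjusted p = 0.421). The part of Paneth cells in the Enpp3 result was not tested. Without CASP8 IEC-KO replicate 1, which was the highest of its group in Enpp3 as in Casp8, Enpp3 differed from Casp8 fl/fl by −0.86 (adjusted p = 0.00439). The call was lost in 6 of the 10 fits that left out 1 mouse, namely Casp8 fl/fl replicates 2, 3 and 5 and CASP8 IEC-KO replicates 2, 3 and 4, with differences down to −0.54 and adjusted p up to 0.175.

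**Figure D2:**
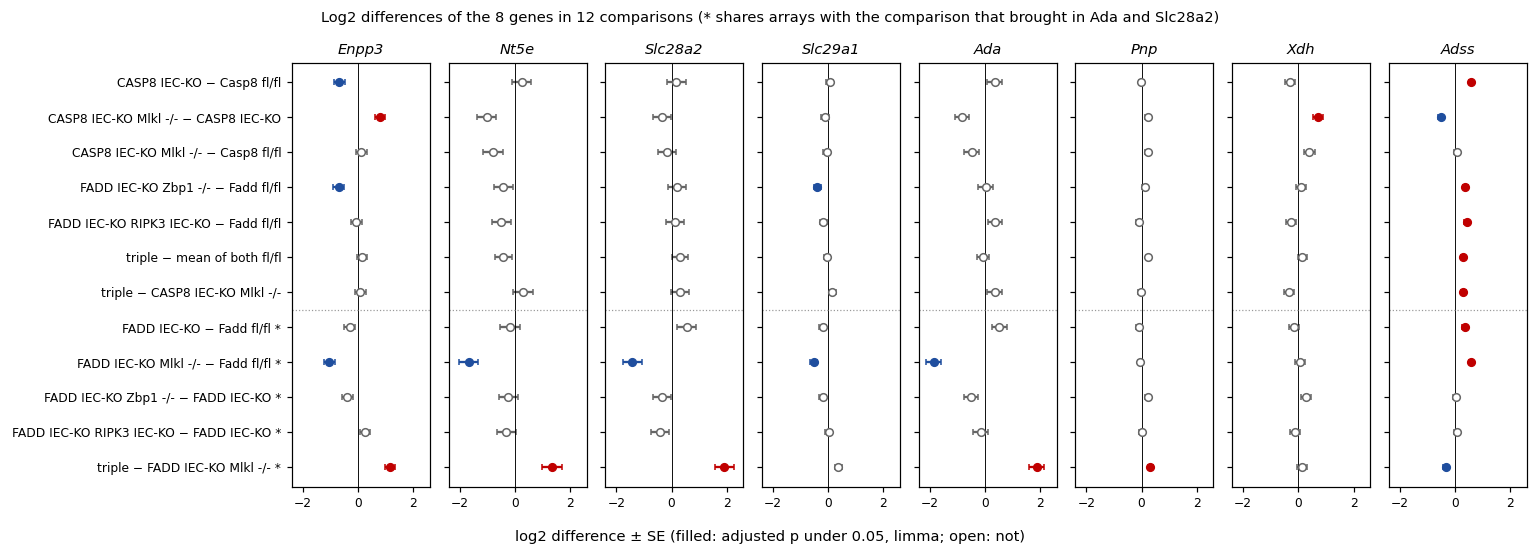
Log2 difference (x axis, point, with SE as bar) of each gene in 12 comparisons (rows; the triple is FADD IEC-KO CASP8 IEC-KO Mlkl -/-). Red and blue filled points passed an adjusted p of 0.05 upward and downward, and rows below the dotted line, marked with a star, share arrays with the comparison that brought in Ada and Slc28a2, for which those points are a description. Adss was higher in every comparison of a FADD-deficient or CASP8 IEC-KO group with floxed controls, and in CASP8 IEC-KO Mlkl -/- the difference was 0.06.

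Adss was higher wherever FADD was deleted, and it was the most evenly expressed of the 8 genes within groups, with an SD of 0.13. Fadd fl/fl mice read 9.27, 8.99, 9.16, 8.89 and 9.11. FADD IEC-KO mice read 9.28, 9.42, 9.42, 9.54 and 9.50, and FADD IEC-KO RIPK3 IEC-KO mice 9.48, 9.53, 9.50, 9.48 and 9.52. None of the 20 mice of the 4 groups with FADD deleted and caspase-8 intact fell within the range of Fadd fl/fl. Such an arrangement was held by 2.25% of all genes in FADD IEC-KO, 2.78% with Zbp1 -/-, 1.69% with RIPK3 IEC-KO and 4.23% with Mlkl -/-. Log2 differences from Fadd fl/fl were 0.35 ± 0.09 in FADD IEC-KO (adjusted p = 0.0164, limma), 0.38 ± 0.09 with Zbp1 -/- (0.00302), 0.42 ± 0.09 with RIPK3 IEC-KO (0.00721) and 0.58 ± 0.09 with Mlkl -/- (2.04e-05). These comparisons share their controls, and the first and last share arrays with the choice of Ada and Slc28a2. In fits of the 2 groups alone the first 3 calls were lost (adjusted p = 0.126, 0.0636 and 0.0652) and that with Mlkl -/- was not (0.00300). In FADD IEC-KO the call was lost without Fadd fl/fl replicate 4 (0.30, adjusted p = 0.0596), and without FADD IEC-KO replicate 1 the difference was 0.39 (adjusted p = 0.0113).

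Adss was also higher in CASP8 IEC-KO than in Casp8 fl/fl. Casp8 fl/fl mice read 9.10, 8.67, 8.85, 8.997 and 9.22, and CASP8 IEC-KO mice 9.55, 9.80, 9.42, 9.55 and 9.43. The groups did not overlap (2.69% of all genes had this group wholly above), and the difference was 0.58 ± 0.09 (adjusted p = 8.31e-05, limma). It was 0.68 in the series under 100 (3 mice against 4) and 0.27 at 200 and over (2 against 1). In a fit of these 2 groups alone the call was lost (adjusted p = 0.0889). Without CASP8 IEC-KO replicate 1 it was 0.58 (adjusted p = 7.94e-05).

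Adss was lower in mice labelled CASP8 IEC-KO Mlkl -/- than in CASP8 IEC-KO. The Mlkl difference between these groups, −0.56 ± 0.195 (SE), did not pass the test (adjusted p = 0.132, limma), and their Mlkl values overlapped. For Adss, CASP8 IEC-KO Mlkl -/- mice read 8.86, 9.03, 9.10, 9.01 and 9.16, below every CASP8 IEC-KO mouse. Adss fell by 0.52 at −0.52 ± 0.09 (adjusted p = 1.38e-04, limma). The adjusted p was 3.05e-04 without CASP8 IEC-KO replicate 1. The level then differed from Casp8 fl/fl by 0.06, with a 95% interval of −0.11 to 0.24. In FADD IEC-KO ileum Adss was 0.23 higher with the Mlkl -/- label, given without a test. Triple mutants stood between, at 9.19, 9.34, 9.37, 9.35 and 9.40. They were 0.31 ± 0.08 above the floxed controls (adjusted p = 0.0154), 0.30 ± 0.09 above CASP8 IEC-KO Mlkl -/- (adjusted p = 0.0473) and 0.33 below FADD IEC-KO Mlkl -/- (−0.33 ± 0.09, adjusted p = 0.0124, on shared arrays). The middle value lost its call under quantile normalization, array median centring, the series covariate and a fit of the 2 groups, with adjusted p from 0.0526 to 0.184, and in 8 of 10 fits without 1 mouse. In the series at 200 and over the first value was 0.19, and its call was lost without triple mutant replicate 5 (adjusted p = 0.0541) and in a fit of the compared groups (0.0863). The last call was lost without triple mutant replicate 1 (adjusted p = 0.0510).

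Xdh, the last step toward uric acid, was highest in mice labelled CASP8 IEC-KO Mlkl -/-, the group whose Mlkl stood near the controls. Its mice read 10.78, 10.94, 10.87, 10.76 and 10.90, above every CASP8 IEC-KO mouse at 10.33, 9.61, 10.33, 10.29 and 10.14. Xdh rose by 0.71 ± 0.19, 1.64-fold (adjusted p = 0.0228, limma). The difference was 0.75 under 100 (4 mice against 3) and 0.69 at 200 and over (1 against 2). It was 0.76 without CASP8 IEC-KO replicate 1 (adjusted p = 0.0199). Against Casp8 fl/fl the groups did not overlap either, at a difference of 0.40 ± 0.19 that did not pass (adjusted p = 0.380). Among all genes, 1.99% had the upper group wholly above in that comparison and 2.22% in the one with CASP8 IEC-KO. The call against CASP8 IEC-KO was lost without CASP8 IEC-KO replicate 2 (0.58, adjusted p = 0.126) or without CASP8 IEC-KO Mlkl -/- replicate 2, 3 or 5 (0.69 to 0.71, adjusted p from 0.0502 to 0.0595).

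Interferon-induced genes rose in the same comparison as Xdh, and lymphocyte markers averaged higher. All 13 type I interferon genes measured rose in CASP8 IEC-KO Mlkl -/- over CASP8 IEC-KO, by a median of 2.20 on the log2 scale against −0.01 over all genes. The mean of that list ran from 8.64 to 9.21 in CASP8 IEC-KO Mlkl -/- mice and from 6.68 to 7.28 in CASP8 IEC-KO mice. The mean of 9 lymphocyte markers ran from 7.03 to 7.45 and from 6.12 to 7.19, with none of the 9 past the test. Their part in the Xdh result was not tested. In FADD IEC-KO Mlkl -/- ileum, where 12 of the 13 interferon genes rose over Fadd fl/fl, Xdh differed by 0.07 ± 0.19 (adjusted p = 0.871). In triple mutants the interferon list averaged 8.03, against 6.76 in Fadd fl/fl and 6.83 in Casp8 fl/fl. The lymphocyte list averaged 7.32 there, against 6.87 and 7.09. Xdh in triple mutants differed from the floxed controls by 0.15 ± 0.16 (adjusted p = 0.69, limma).

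Pnp hardly moved. Group means lay between 9.14 and 9.54, and in 1 of the 13 tested comparisons it passed, 0.32 ± 0.09 higher in triple mutants than in FADD IEC-KO Mlkl -/- (adjusted p = 0.0218, limma, on arrays shared with the choice of Ada and Slc28a2). That call was lost in 4 of the 10 fits without 1 mouse (without triple mutant replicate 1 or 3, or FADD IEC-KO Mlkl -/- replicate 1 or 2; adjusted p up to 0.0815). Pnp2, its neighbouring near copy, rose by 0.33 ± 0.10 in the same comparison (adjusted p = 0.0396). The 2 probes moved together from mouse to mouse (r = 0.88 over 45 mice after subtracting group means), and whether each probe reads its own gene was not tested.

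Counted over the 8 genes, 1 rose in FADD IEC-KO against its control, where 1.81% of all genes rose and 3.73% were called in either direction. In CASP8 IEC-KO 1 rose and 1 fell, against 2.89% and 1.28% of all genes (4.17% called). With the Mlkl -/- label in CASP8 IEC-KO ileum 2 rose and 1 fell, against 1.59% and 1.19% (2.78% called). None passed in CASP8 IEC-KO Mlkl -/- against Casp8 fl/fl (1.09% of all genes called, limma), where 3 of the 8 had an unadjusted p under 0.05. Against Fadd fl/fl, 5 fell and 1 rose in FADD IEC-KO Mlkl -/-, where 6.35% and 4.12% of all genes did (10.5% called). That count includes Ada and Slc28a2 on the arrays that brought them in, so nothing is read from it against the share of all genes. With Zbp1 -/- in place of Mlkl -/-, 2 fell and 1 rose, against 7.08% and 4.78% (11.9% called). With RIPK3 IEC-KO 1 rose, against 0.564% (1.23% called). Against FADD IEC-KO itself none passed in limma with Zbp1 -/- (3.32% called) or RIPK3 IEC-KO (1.55%), with 2 and 0 of the 8 at an unadjusted p under 0.05. Triple mutants had 1 gene higher than floxed controls (2.15% of all genes higher, 3.69% called) and 1 higher than CASP8 IEC-KO Mlkl -/- (2.04%, 3.1% called). They had 5 higher and 1 lower than FADD IEC-KO Mlkl -/-, against 5.51% and 2.35% (7.86% called), a count with the same limit. In fits of the compared groups alone, the count was 0 for CASP8 IEC-KO, FADD IEC-KO, RIPK3 IEC-KO and Zbp1 -/- with FADD IEC-KO, and triple mutants, each against floxed controls. The share of all genes called in those fits is not given here, so nothing is read from these counts. In the comparison that brought in Ada and Slc28a2, 1.61% of all genes were called and the median over the 8 genes was −0.53 against −0.01 over all genes. The difference between the effects of FADD and caspase-8 loss called 0 of 19494 genes in limma (0%), with 1271 of all genes and 0 of the 8 at an unadjusted p under 0.05. It did not call the deleted genes either (Casp8 0.99, adjusted p = 0.0637, and Fadd −1.10, adjusted p = 0.0945), so it does not show that the effects on the 8 genes were alike. Without FADD IEC-KO replicate 1 and CASP8 IEC-KO replicate 1, it called Casp8 and Fadd (adjusted p = 0.00238 each, limma). It then called 0.0103% of all genes and none of the 8. Those mice were left out for their own Fadd and Casp8 values, which enlarges these 2 differences. The 2 calls are therefore no test, and they do not show that a difference in the 8 genes would be found.

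**Figure D3:**
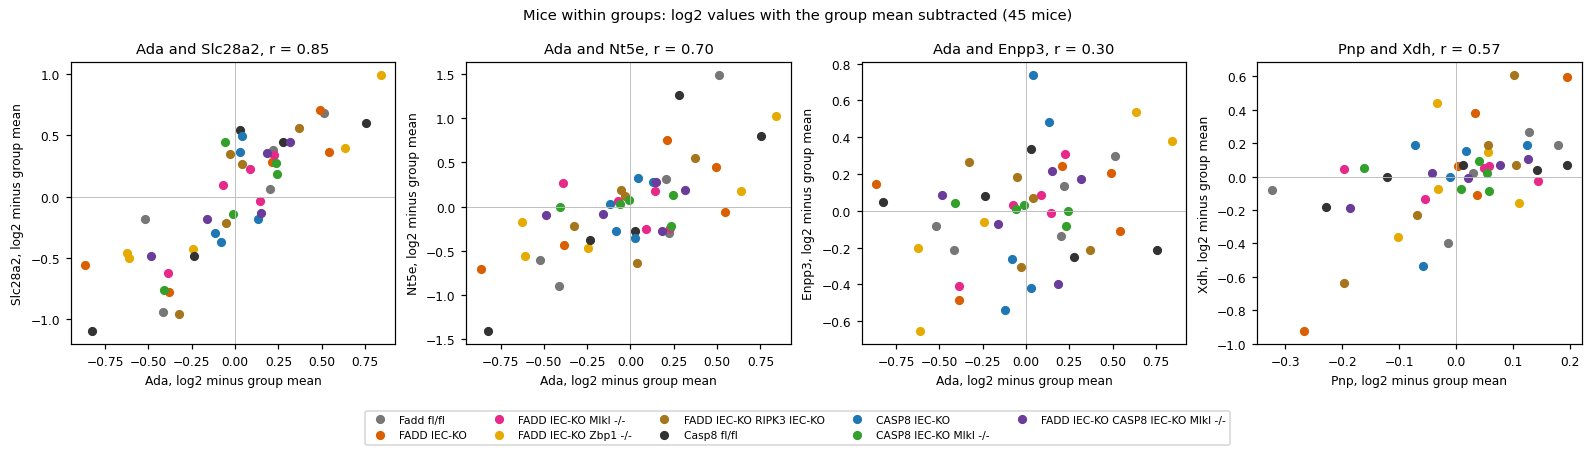
Log2 values of 4 gene pairs in 45 mice (points, coloured by group) after each group's mean was subtracted, so that differences between groups play no part. Ada and Slc28a2 lie along a line (r = 0.85), Ada and Nt5e less tightly (r = 0.70), Ada and Enpp3 loosely (r = 0.30), and Pnp and Xdh at r = 0.57.

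Mouse-to-mouse variation tied 3 of the genes together apart from any genotype. After each group's mean was subtracted, Ada and Slc28a2 correlated over 45 mice with a Pearson r of 0.85 and a Spearman rho of 0.84. Slc28a2 was the gene most like Ada among all genes, and Ada the gene most like Slc28a2. The value was 0.85 in each title series and between 0.83 and 0.87 when any 1 group was left out. Nt5e correlated with Ada at 0.70 (rho 0.65) and with Slc28a2 at 0.62 (rho 0.56). With Ada, Enpp3 and Xdh both stood at 0.30, Slc29a1 at −0.17, Pnp at 0.14 and Adss at 0.08. Of these, Xdh changed sign between the title series (0.55 under 100 and −0.29 at 200 and over), as did Pnp (0.33 and −0.31) and Slc29a1 (−0.48 and 0.50). These correlations are descriptions, since all genes of a mouse share its piece of ileum and its array.

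Beyond the 8 genes, Slc23a4 came next, with r of 0.76 to both Ada and Slc28a2. Slc23a4 is known in rat as a sodium-dependent transporter of nucleobases in the intestine. Its level was 5.92 ± 0.27 in FADD IEC-KO Mlkl -/- mice, and the other groups averaged between 6.88 and 7.57. It fell by 1.25 against Fadd fl/fl (−1.25 ± 0.23, adjusted p = 2.60e-04, limma) and was 1.64 ± 0.23 higher in triple mutants than in FADD IEC-KO Mlkl -/- (adjusted p = 1.36e-05). In CASP8 IEC-KO Mlkl -/- against CASP8 IEC-KO the difference was −0.61 ± 0.23 (adjusted p = 0.170). Because it varied with Ada within groups, its low level in the group that chose Ada is not independent of that choice.

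Fam83b (0.703), Nt5e (0.700) and Bmp8a (0.683) completed the 5 genes most like Ada within groups. For Slc28a2 the remaining 3 were Nckap5 (0.695), Ly6m (0.691) and Npc1l1 (0.646), the last the cholesterol uptake protein of enterocytes. Over the 9 group means, the genes most like Ada were Rbp2 (0.975), which binds retinol in enterocytes, then Rab4a (0.950), Slc28a2 (0.941), Camk2g (0.937) and Fam117b (0.937). Those most like Slc28a2 were Rbp2 (0.948), Apob (0.943), the apolipoprotein of chylomicrons, Ada (0.941), Camk2g (0.941) and Stxbp5 (0.935). These are 9 points, of which the FADD IEC-KO Mlkl -/- mean lies 1.52 below the next for Ada and 1.42 for Slc28a2.

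**Figure D4:**
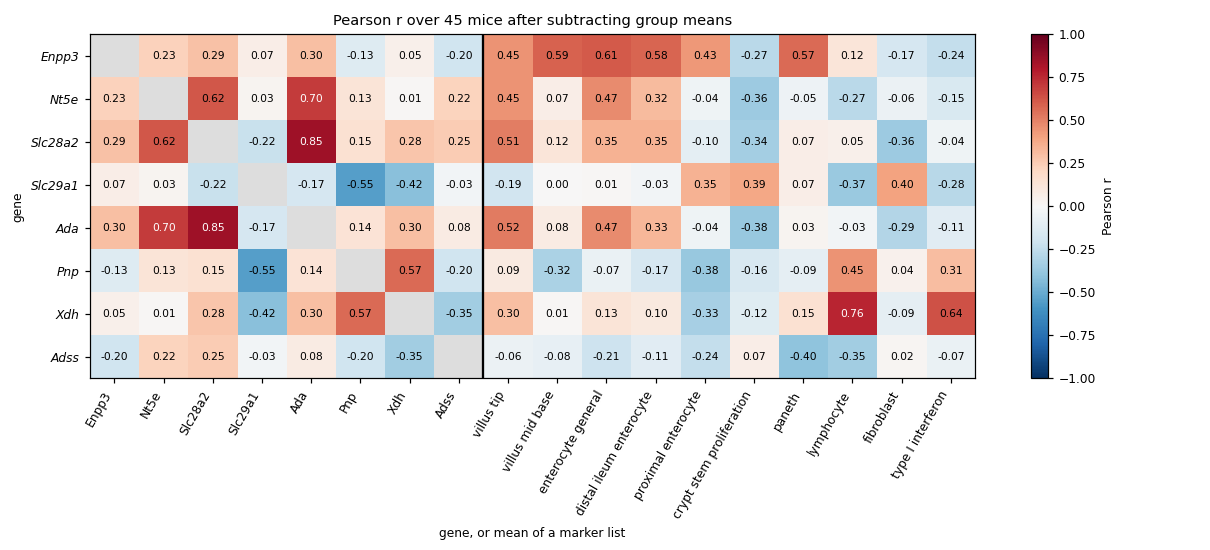
Pearson r over 45 mice after subtracting group means, for each of the 8 genes (rows) against the other genes (columns left of the line) and against the mean of each marker list (columns right of it). Ada, Slc28a2 and Nt5e form a block. They correlated with the villus tip list (0.45 to 0.52), and so did Enpp3 (0.45). Xdh stands with the lymphocyte list (0.76) and the type I interferon list (0.64).

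Marker lists of the tissue's cells varied with the genes within groups. The mean of 10 villus tip markers correlated with Ada at 0.52, Slc28a2 at 0.51 and Nt5e at 0.45, and the list for the middle and base of the villus at 0.08, 0.12 and 0.07. The general enterocyte list stood at 0.47, 0.35 and 0.47. In the series at 200 and over, Ada stood at 0.37 with the tip list, 0.34 with the middle and base and 0.60 with the general list, and Nt5e at 0.41, 0.49 and 0.73. Enpp3 went with the general enterocyte list (0.61), the middle and base (0.59), the distal ileum enterocyte list (0.58) and the Paneth list (0.57). Its Paneth value fell to 0.30 when 1 group was left out. With the villus tip list Enpp3 stood at 0.45, and at 0.57 in the series at 200 and over. Xdh went with lymphocyte markers (0.76) and interferon genes (0.64), and Pnp with lymphocyte markers at 0.45.

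Villus marker lists averaged lower in FADD IEC-KO Mlkl -/- than in Fadd fl/fl, and these 2 groups overlapped. The mean of the tip list ran from 9.44 to 9.62 in FADD IEC-KO Mlkl -/- and from 9.54 to 9.76 in Fadd fl/fl. In FADD IEC-KO it ran from 9.71 to 10.0, wholly above FADD IEC-KO Mlkl -/-. The lowest mouse of the remaining groups stood at 9.66. Of the 10, 3 fell against Fadd fl/fl, with a median log2 difference of −0.33, in a comparison that called 10.5% of all genes. The list for the middle and base averaged 9.98 ± 0.06 against 10.25 ± 0.20, with 0 of 11 called and a median of −0.07. That list ran from 9.93 to 10.06 in FADD IEC-KO Mlkl -/- and from 9.94 to 10.28 in FADD IEC-KO. In triple mutants against FADD IEC-KO Mlkl -/-, 7 of 10 tip markers rose, with a median of 0.48, and 4 of 11 of the middle and base, with a median of 0.26 (7.86% of all genes called). The general enterocyte list averaged 11.09 ± 0.11 in FADD IEC-KO Mlkl -/- and 11.25 ± 0.13 in Fadd fl/fl. The part of these cells in the Ada, Slc28a2 and Nt5e results was not tested.

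**Figure D5:**
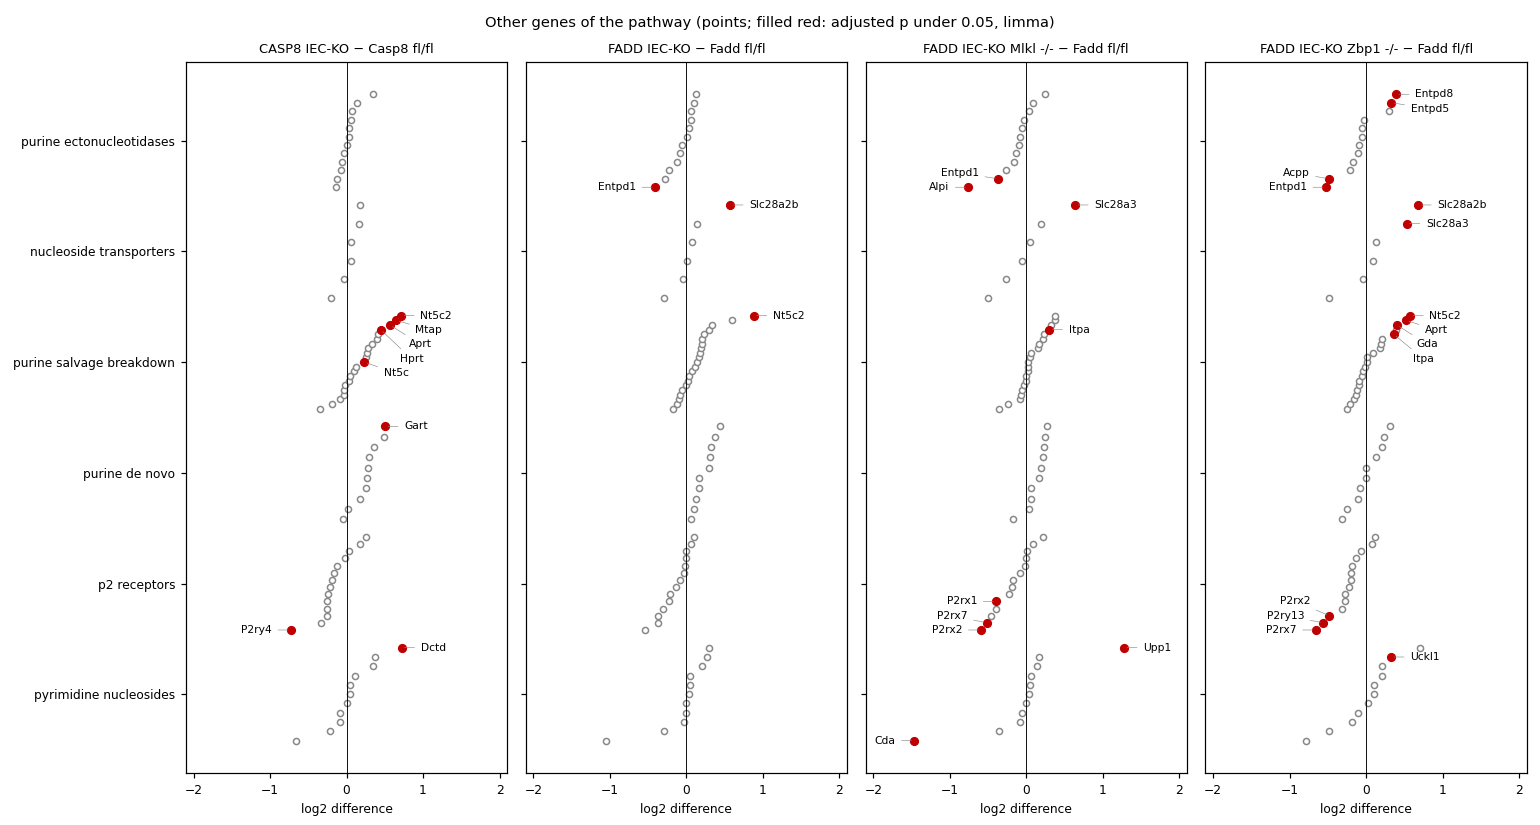
Log2 difference (x axis) of the genes of 6 lists (rows, points ordered by value) in 4 comparisons with the floxed controls (panels). Filled red points passed an adjusted p of 0.05 and are named. Of 21 salvage and breakdown genes, 5 rose with caspase-8 deletion and 1 with FADD deletion, with 15 above 0 in each. The test of the difference between both called none of the 21.

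The wider pathway was read from lists of 75 measured genes that leave out the 8. In CASP8 IEC-KO against Casp8 fl/fl, 7 rose and 1 fell, 10.7% against 4.17% of all genes. Of these, 5 belong to salvage and breakdown, a list of 21 with a median of 0.23. Among them Nt5c2, the cytosolic nucleotidase for IMP and GMP, rose by 0.71 ± 0.17 (adjusted p = 0.0107, limma), and Mtap, which recovers adenine from methylthioadenosine, by 0.65 ± 0.20 (0.0495). Aprt, which returns adenine to AMP, rose by 0.57 ± 0.12 (0.00414), and Hprt and Nt5c were the others. Gart, of purine synthesis, rose by 0.50 ± 0.14 (0.0252), 1 of 10 genes of that list, and Dctd, a deoxycytidylate deaminase, by 0.72 ± 0.21 (0.0447), 1 of 11 pyrimidine genes. The ATP and UTP receptor P2ry4 fell by 0.73 (−0.73 ± 0.18, adjusted p = 0.0153), 1 of 14 P2 receptors. No ectonucleotidase of 12 and no other transporter of 6 passed. Adss, not counted in the lists, rose in the same comparison. Without CASP8 IEC-KO replicate 1 and FADD IEC-KO replicate 1, 9 rose and 1 fell (6.86% of all genes called), the added genes being Ahcy and Ppat.

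In mice labelled CASP8 IEC-KO Mlkl -/-, against CASP8 IEC-KO, Nt5c2 was lower, by 0.75 (−0.75 ± 0.17, adjusted p = 0.00500, limma), 1 of 21 salvage genes. P2ry2, another receptor for ATP and UTP, fell by 0.76 (−0.76 ± 0.20, adjusted p = 0.0196), and no gene of the other lists passed (2.78% of all genes called). Without the same 2 mice 2 rose and 3 fell (3.71%), with Aprt now among the lower and P2ry4 and P2ry10 among the higher. In CASP8 IEC-KO Mlkl -/- against Casp8 fl/fl, 0 of the 75 passed in limma, where 1.09% of all genes did. In triple mutants against the floxed controls 0 of the 75 passed as well, where 3.69% of all genes did.

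FADD IEC-KO against Fadd fl/fl had 2 of the 75 rising and 1 falling, 4.0% against 3.73% of all genes. Nt5c2 rose by 0.88 ± 0.17 (adjusted p = 0.00135, limma), and was 0.69 lower again in FADD IEC-KO RIPK3 IEC-KO (−0.69 ± 0.17, adjusted p = 0.0267). With all mice it was the single pathway gene called there. Without the 2 mice the ectonucleotidase Entpd5 was called as well, higher by 0.46 ± 0.12 (adjusted p = 0.0277, limma), where 1.99% of all genes were called. Slc28a2b rose as given above, and Entpd1, a surface enzyme that degrades ATP and ADP, fell by 0.41 (−0.41 ± 0.10, adjusted p = 0.0111). All 10 purine synthesis genes had positive differences, with a median of 0.23 against 0.00 over all genes, and 0 passed. Without the 2 mice 1 rose and 1 fell (3.75% of all genes), Slc28a2b being lost.

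FADD IEC-KO Mlkl -/- against Fadd fl/fl had 3 of the 75 rising and 6 falling, 12.0% against 10.5% of all genes. Alpi, the intestinal alkaline phosphatase that also strips phosphates from nucleotides, fell by 0.76 (−0.76 ± 0.17, adjusted p = 0.00294, limma), and Entpd1 by 0.37 (−0.37 ± 0.10, 0.00974). Slc28a3, the concentrative transporter for both purines and pyrimidines, rose by 0.64 ± 0.14 (0.00208), opposite to Slc28a2. Cda, which deaminates cytidine, fell by 1.46 (−1.46 ± 0.35, 0.00486), and Upp1, which cleaves uridine, rose by 1.28 ± 0.42 (0.0427). P2rx2 (−0.59 ± 0.16, 0.0154), P2rx7 (−0.52 ± 0.18, 0.0497) and P2rx1 (−0.39 ± 0.13, 0.0417) fell, all channels opened by ATP, and Itpa, which clears inosine triphosphate, rose by 0.30 ± 0.10 (0.0395).

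FADD IEC-KO Zbp1 -/- against Fadd fl/fl had 9 of the 75 rising and 5 falling, 18.7% against 11.9% of all genes. Slc28a2b rose by 0.68 ± 0.15 (adjusted p = 0.00265, limma) and Slc28a3 by 0.53 ± 0.14 (0.00893). In the salvage list 4 of 21 genes rose, led by Nt5c2 at 0.58 ± 0.17 (0.0187), Aprt at 0.52 ± 0.12 (0.00285) and Gda, guanine deaminase, at 0.40 ± 0.13 (0.0348). Among ectonucleotidases Entpd1 (−0.52 ± 0.10, 2.75e-04) and Acpp (−0.49 ± 0.16, 0.0434) fell, and Entpd8 (0.39 ± 0.09, 0.00399) and Entpd5 (0.33, 0.0414) rose. Of the P2 receptors 3 fell, P2rx7 by the most (−0.66 ± 0.18, 0.00976). The adenosine receptors were not analysed here.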

How the data were processed

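RNA of 45 ilea was labelled and hybridised to Affymetrix whole-transcript arrays, per the labels' protocols. The authors deposited normalized log2 intensities for which the submitters' processing notes name Affymetrix Expression Console and Transcriptome Analysis Console. The summarization method is not given in the sources used here. Normalization between arrays removes shifts common to most genes. Of 22142 probes, 19527 had 1 symbol in the platform annotation, 0 several and 2615 none. The probe with the highest mean stood for each of 19494 genes. Groups followed the titles.

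All 45 arrays were fitted with limma 3.58.1 in R 4.3.3, with 1 mean per group, empirical Bayes and Benjamini-Hochberg adjustment over 19494 genes; calls were at an adjusted p under 0.05. The fit was tested on simulated data. Precision is limited by 5 mice per group, and depth does not apply to arrays. Alternatives were quantile normalization, median centring, a dim gene filter, the mean of all probes, array weights, fits of the compared groups, the title series as a covariate, and each mouse left out. Leaving out FADD IEC-KO replicate 1 and CASP8 IEC-KO replicate 1, each the highest of its group in the targeted gene, was added after the data were seen.

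The 8 genes and all lists were chosen with earlier results of these data known. Named genes are the 8, up to 3 called genes of each pathway list per comparison with the largest change, the 5 genes most like Ada and Slc28a2, and the targeted genes; Hprt, Nt5c, Itpa, Entpd5, Ahcy, Ppat and P2ry10 were named after their values were seen. Dpp4, the surface anchor of human ADA, was listed with the adenosine receptors, which were not analysed here, and was called in no tested comparison. Motif matches used RefSeq windows on the mouse build GRCm38.p6.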

Additional observations from a re-analysis of the deposited data

Results flagged for a closer look

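In 5 of 72 groups of 5 mice, 1 mouse stood apart from the others by Dixon's test, whose critical value for 5 values is 0.71; chance alone gives about 1 in 20. Slc29a1 in Casp8 fl/fl replicate 1 read 6.04, with the nearest other mouse at 6.39. Pnp in CASP8 IEC-KO Mlkl -/- replicate 5 read 9.38, against 9.55. Xdh in Casp8 fl/fl replicate 3 read 10.26, against 10.45, and in CASP8 IEC-KO replicate 2 it read 9.61, against 10.14. Adss in triple mutant replicate 1 read 9.19, against 9.34. Each of these was the lowest of its group.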

How the results depend on the processing

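In fits of the compared groups alone, the count of the 8 genes called was 0 against floxed controls for CASP8 IEC-KO, FADD IEC-KO, its combinations with RIPK3 IEC-KO or Zbp1 -/-, and triple mutants, and 1 (Xdh, higher, adjusted p = 0.0388) for CASP8 IEC-KO Mlkl -/-; for triple mutants against CASP8 IEC-KO Mlkl -/- it stayed at 1, with Xdh lower (adjusted p = 0.0381) in place of Adss. With array weights it was 5 for CASP8 IEC-KO Mlkl -/- against CASP8 IEC-KO and 2 for triple mutants against floxed controls. For triple mutants against CASP8 IEC-KO Mlkl -/- it was 0 under quantile normalization, median centring and the title series covariate. The causes were not tested. The share of all genes called is not given here for these fits or for those without 1 mouse. Their counts are therefore not read as results about the 8 genes. Leaving out 1 mouse gave counts of 0 to 1 for FADD IEC-KO, 1 to 2 for CASP8 IEC-KO, 1 to 3 for FADD IEC-KO Zbp1 -/-, 6 to 6 for FADD IEC-KO Mlkl -/-, 1 to 1 for FADD IEC-KO RIPK3 IEC-KO and 0 to 1 for triple mutants against floxed controls, 1 to 3 for CASP8 IEC-KO Mlkl -/- against CASP8 IEC-KO, 0 to 1 for triple mutants against CASP8 IEC-KO Mlkl -/- and 4 to 6 against FADD IEC-KO Mlkl -/-. The median difference between FADD IEC-KO Mlkl -/- and FADD IEC-KO then ran from −0.60 to −0.47, and Pnp in it from −0.0111 without FADD IEC-KO replicate 4 to 0.1053, against 0.0558 with all mice. Leaving out both FADD IEC-KO replicate 1 and CASP8 IEC-KO replicate 1 changed no count of the 8 genes. Of 2080 single-gene values under alternatives, 59 had another sign; besides that untested Pnp value, none of these passed the test in either fit. The mean of all probes could not change the 8 genes, which have 1 probe each. No paired analysis was possible because replicate numbers follow accession order and the titles pair no mice across groups.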
